A study of Homo sapiens with 13 samples.

Results

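N6-methyladenosine (m6A) is a methyl mark on internal adenosines of mRNA, and the 10 genes described here encode the proteins that place it (writers), remove it (erasers) and bind it (readers). They were METTL3, METTL14, WTAP and VIRMA as writers, ALKBH5 and FTO as erasers, and YTHDF1, YTHDF2, YTHDF3 and YTHDC1 as readers, listed by name for this role. Earlier results of these data were known when the genes were listed. All 10 were found among the 59204 human genes of the deposited tables, and all 10 passed the filters on low counts of both tests used below. In mammalian cells a METTL3 and METTL14 core, held in place by WTAP and VIRMA, methylates adenosines mostly near stop codons and in 3′ untranslated regions. The demethylases ALKBH5 and FTO can reverse the mark, and proteins with a YTH domain read it. YTHDF2 is known for bringing methylated mRNA to the deadenylation machinery, so the mark is linked to mRNA decay. In myeloid leukaemia cells METTL3 and FTO have both been studied as genes that sustain growth.

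The data follow how fast labelled mRNA was lost from K562, an established human line of chronic myeloid leukaemia. Cells received 30 µM 4-thiouridine (4sU), a uridine analogue built into new RNA, for 12 h, with fresh medium every 3 h. They were then washed and kept in 3 mM uridine, which competes with leftover 4sU, and harvests followed at 6 times of that chase, namely 0, 1, 2, 4, 8 and 12 h, each in 2 replicates. A further library came from K562 cells without 4sU. It has no replicate, and whether its cells were washed and given uridine is not stated in the labels. The 12 chase libraries thus share the line and the pulse, and the libraries of 0 h hold RNA of cells that had been in 4sU for 12 h. Alkylation makes 4sU read as C, so that reads from labelled RNA can be told from the rest (SLAM-seq). Libraries were primed at the poly(A) tail (QuantSeq 3′ mRNA sequencing) and 5% RNA of Drosophila S2 cells was added as a spike-in. Each read then stands for a transcript end, not for a stretch of length, and levels are given as CPM, which are counts scaled to the total of the library. Reads called nascent by the authors are the labelled counts below. Whether replicates were separate cultures is not stated in the labels. The p-values therefore measure only how far these libraries scatter, which may be technical.

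Total counts per library were between 9004529 and 17425584, which allows a gene with a count of 0 a share of at most 3.33e-05% (3 counts in the shallowest library). This floor covers counting error only, while the half-life intervals below also carry the scatter between libraries. The labelled share of all counts was 35.9 and 36.1% at 0 h and 10.9 and 10.6% at 12 h, against 0.00633% without 4sU. The erythroid regulator GATA1 lay between 67.7 and 138 CPM and the fetal globin HBG1 between 1680 and 4806 CPM, while the B cell gene MS4A1 and the T cell gene CD3E stayed at or under 0.0894 and 0.222 CPM. CD3D, another T cell gene, was at 15.8 to 33.1 CPM. Libraries stood apart in the composition of the spike-in RNA, where the leading component of 648 spike-in genes held 66.2% of the variance. Both libraries of 0, 1 and 2 h and replicate 1 of 4 h fell on one side (scores of −3.76 to −1.24). The other side held the library without 4sU, replicate 2 of 4 h and all 4 libraries of 8 and 12 h (scores of 2.23 to 5.32). This side runs almost with chase time, and results are given below with it as a factor wherever it changed a call.

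Coordinates are gene spans of GENCODE 29 on GRCh38. Among the writers, METTL3 lies on chromosome 14 (21498133 to 21511375, minus strand), METTL14 on chromosome 4 (118685368 to 118715433, plus strand), WTAP on chromosome 6 (159725585 to 159756319, plus strand) and VIRMA on chromosome 8 (94487693 to 94553529, minus strand). The erasers lie on chromosome 17 (ALKBH5, 18183078 to 18209954, plus strand) and chromosome 16 (FTO, 53701692 to 54158512, plus strand). Among the readers, YTHDF1 lies on chromosome 20 (63195429 to 63216234, minus strand), YTHDF2 on chromosome 1 (28736621 to 28769775, plus strand), YTHDF3 on chromosome 8 (63168553 to 63212786, plus strand) and YTHDC1 on chromosome 4 (68310387 to 68350089, minus strand).

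At their 3′ ends METTL3 meets TOX4 and WTAP meets an annotated entry of SOD2, each on the opposite strand. That SOD2 entry is not among the counted genes. Another SOD2 entry, which is counted, overlaps WTAP on the opposite strand but not near its 3′ end. Whether the counting used strand is not given in the sources used here, so the values of METTL3 and WTAP are uncertain to that extent. YTHDF2 has a processed pseudogene, YTHDF2P1 on chromosome 14, that drew 66 to 425 counts per library, or 4.29 to 7.87 counts for each 100 of YTHDF2. Its labelled share was 39.5 and 37.1% at 0 h and 0% in both libraries of 12 h. The calls of YTHDF2 given below were the same when these counts were added to it, a setting chosen after the data were seen, and the other 4 pseudogenes of the 10 genes had at most 3 counts in any library.

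Promoter windows run from 250 bases before to 50 bases after each start (RefSeq, GRCh38.p14), and those of YTHDF2 and FTO are printed because these genes had the largest rise and the largest fall of total RNA at 0 h against no 4sU. YTHDF2 has a window for each of 2 starts, on the plus strand at chr1:28736374-28736673 and chr1:28736690-28736989, and FTO has a window on the plus strand at chr16:53703906-53704205. Capitals mark GC boxes (GGGCGG or CCGCCC) and CCAAT boxes (CCAAT or ATTGG), searched on both strands, which do not share letters with each other.
YTHDF2 upstream start: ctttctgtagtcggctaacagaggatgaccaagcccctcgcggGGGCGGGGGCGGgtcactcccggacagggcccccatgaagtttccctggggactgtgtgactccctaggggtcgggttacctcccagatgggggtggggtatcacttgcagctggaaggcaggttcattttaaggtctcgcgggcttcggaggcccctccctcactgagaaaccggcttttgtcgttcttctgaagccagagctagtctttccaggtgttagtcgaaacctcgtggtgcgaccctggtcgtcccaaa
YTHDF2 downstream start: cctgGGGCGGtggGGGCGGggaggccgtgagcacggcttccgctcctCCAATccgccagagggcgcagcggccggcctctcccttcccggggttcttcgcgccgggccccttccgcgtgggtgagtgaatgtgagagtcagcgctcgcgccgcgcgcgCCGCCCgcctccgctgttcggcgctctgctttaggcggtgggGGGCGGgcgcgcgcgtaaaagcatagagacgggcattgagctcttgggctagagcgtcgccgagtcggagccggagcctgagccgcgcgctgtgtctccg
FTO: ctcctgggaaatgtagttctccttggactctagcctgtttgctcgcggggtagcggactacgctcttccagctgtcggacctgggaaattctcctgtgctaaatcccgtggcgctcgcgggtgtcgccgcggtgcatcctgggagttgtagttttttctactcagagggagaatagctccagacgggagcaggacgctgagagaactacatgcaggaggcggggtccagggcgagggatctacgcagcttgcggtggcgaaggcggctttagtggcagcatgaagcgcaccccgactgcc
The upstream YTHDF2 window held 2 GC boxes and the downstream window 4 GC boxes and 1 CCAAT box. The FTO window held none of these, nor an E-box (CACGTG), CRE (TGACGTCA), ETS site (CCGGAAG) or TATA box (TATAAA), again on both strands. Of 35116 RefSeq promoter windows of 300 bases, 45.0% held a GC box and 34.6% a CCAAT box, and 7.26% held an E-box, 1.85% a CRE, 10.3% an ETS site and 11.5% a TATA box. A match describes these letters only, and a missing match says only that they are not in this window.

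Of the 10 genes, 8 lost labelled RNA faster than the median gene and 0 lost it slower, by edgeR's quasi-likelihood test of the slope with Benjamini-Hochberg adjustment over 9652 genes. The background was 36.0% of the 9652 genes called faster and 36.3% called slower, and the median slope was −0.24 log2 units per h. The members' median apparent half-life, the time in which the fitted labelled level lost 1 log2 unit, was 3.13 h, and that of all tested genes was 4.30 h (10th to 90th percentile 2.30 to 10.9 h). With the library as offset, the 3 cytoplasmic YTHDF readers had the shortest half-lives of the 10 and the 2 erasers the longest. When spike-in side was a factor, 6 members were called faster (background 21.7% faster and 24.9% slower). With the total of the gene itself in place of the library as offset, 7 were (background 38.3%). Restricted to 0 to 4 h, 3 were (background 20.0% faster and 17.6% slower), and none was called slower under these settings.

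**Figure D1:**
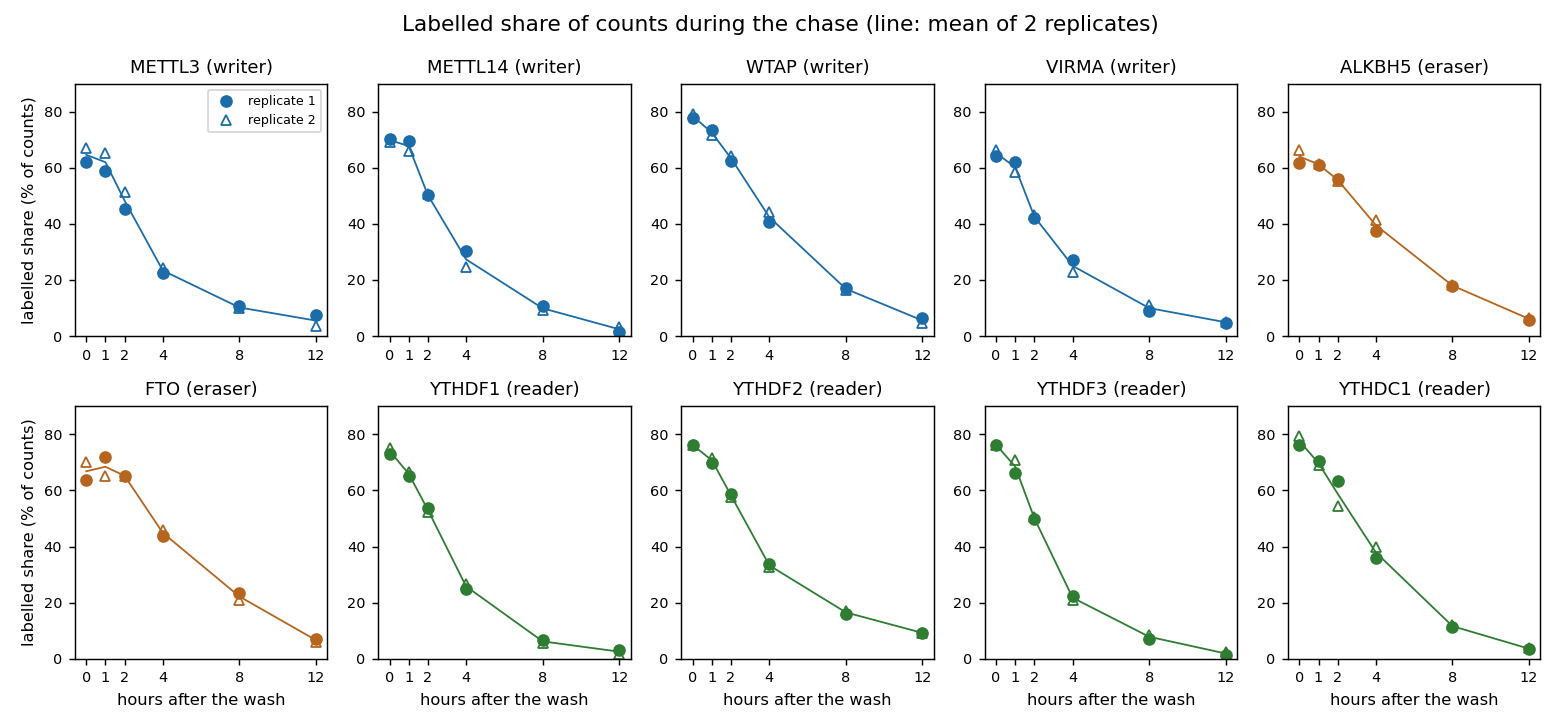
Labelled share of each gene's counts (%, linear axis from 0) against hours after the wash, with filled circles for replicate 1, open triangles for replicate 2 and a line through the mean. The shares lie between 61.7 and 79.3% at 0 h and between 1.33 and 9.30% at 12 h. In FTO the replicates part between 0 and 1 h, where replicate 1 goes up and replicate 2 down.

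Among the writers, METTL3, the catalytic subunit, was labelled at 62.1 and 67.1% of its counts at 0 h, 58.7 and 65.2% after 1 h, 45.2 and 51.4% at 2 h, 22.5 and 24.3% after 4 h, 10.6 and 9.84% at 8 h and 7.56 and 3.46% after 12 h. The 2 replicates of 0 and 1 h overlapped, and every later time lay under them. Its half-life was 3.42 h (95% interval 2.96 to 4.04 h), and its slope differed from the median by −0.05 ± 0.02 log2 units per h (SE, edgeR adjusted p = 0.0250). This call was lost when spike-in side was a factor (adjusted p = 0.700). It was also lost without replicate 2 of 0 h, either replicate of 8 h or replicate 2 of 12 h (edgeR adjusted p of 0.0524 to 0.0791). Over the fits with 1 library left out the difference ran from −0.0883 to −0.0430, the first of these without replicate 1 of 12 h.

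METTL14, the partner that helps METTL3 bind RNA, was labelled at 70.4 and 69.3% at 0 h, 69.6 and 66.01% after 1 h, 50.1 and 50.5% at 2 h, 30.2 and 24.5% after 4 h, 10.6 and 9.22% at 8 h and 1.57 and 3.28% after 12 h. The share changed little in the opening hour and was lower at each later time. Its labelled level rose in that hour, from 15.1 and 14.5 CPM at 0 h to 17.2 and 16.9 CPM after 1 h. Its half-life was 2.91 h (2.30 to 3.97 h) and its slope lay −0.14 ± 0.03 from the median (edgeR adjusted p = 8.62e-05). When spike-in side was a factor it did not pass (adjusted p = 0.104).

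WTAP, the adapter that brings the core to nuclear speckles, was labelled at 77.9 and 79.00% at 0 h, 73.3 and 71.6% after 1 h, 62.4 and 64.3% at 2 h, 40.6 and 44.1% after 4 h, 17.1 and 16.6% at 8 h and 6.32 and 4.78% after 12 h. No 2 successive times overlapped. Its half-life was 3.18 h (2.72 to 3.83 h), with a slope difference of −0.10 ± 0.01 log2 units per h (edgeR adjusted p = 3.19e-07). VIRMA, the large scaffold that directs methylation towards 3′ ends, was labelled at 64.2 and 66.3% at 0 h, 27.1 and 22.9% after 4 h and 4.73 and 5.11% after 12 h. It was the only one of the 10 with labelled counts in the library without 4sU, 3 counts or 0.331% of its total there. Its half-life was 3.71 h (3.16 to 4.48 h) and it did not pass the test against the median slope (difference −0.03 ± 0.02, edgeR adjusted p = 0.106, with a positive sign of 0.02 when the spike-in side was a factor). Against its own total it passed as faster (edgeR adjusted p = 4.74e-04).

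The erasers had the longest half-lives of the set. ALKBH5, a nuclear demethylase, was labelled at 61.7 and 66.3% at 0 h, 61.00 and 61.4% after 1 h, 55.99 and 55.4% at 2 h, 37.4 and 41.5% after 4 h, 17.8 and 18.2% at 8 h and 5.72 and 6.52% after 12 h. FTO, which also demethylates m6Am beside the cap of small nuclear RNA and mRNA, was labelled at 63.7 and 70.00% at 0 h, 71.9 and 65.00% after 1 h, 65.2 and 65.3% at 2 h, 43.8 and 45.9% after 4 h, 23.4 and 21.03% at 8 h and 7.18 and 6.09% after 12 h. For FTO the libraries of 0, 1 and 2 h overlapped, so that no loss of its share was visible in the first 2 h. ALKBH5 had a half-life of 3.77 h (3.16 to 4.66 h) and was called faster than the median (slope difference −0.05 ± 0.02, edgeR adjusted p = 0.00630), but not against its own total (adjusted p = 0.622). FTO had a half-life of 4.73 h (3.72 to 6.51 h) and did not pass (difference 0.01 ± 0.02, edgeR adjusted p = 0.598). The sign of that FTO difference turned with the side as a factor, without the filter and in the window of 2 to 12 h.

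Among the readers, YTHDF3 was labelled at 76.4 and 76.3% at 0 h, 66.1 and 70.9% after 1 h, 49.7 and 50.5% at 2 h, 22.4 and 21.1% after 4 h, 7.16 and 8.50% at 8 h and 1.33 and 2.40% after 12 h. YTHDF1, known for promoting translation of methylated mRNA, was labelled at 73.03 and 75.2% at 0 h, 65.2 and 66.7% after 1 h, 53.8 and 52.4% at 2 h, 24.9 and 26.7% after 4 h, 6.67 and 5.71% at 8 h and 3.24 and 1.81% after 12 h. In both genes no 2 successive times overlapped. YTHDF3 had the shortest half-life of the 10, 2.14 h (1.86 to 2.51 h), with a slope difference of −0.25 ± 0.02 log2 units per h (edgeR adjusted p = 4.32e-12). YTHDF1 followed with 2.35 h (2.00 to 2.85 h) and a slope difference of −0.22 ± 0.02 (edgeR adjusted p = 7.47e-11).

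YTHDF2, the reader that recruits the deadenylase complex, was labelled at 76.2 and 76.2% at 0 h, 69.9 and 71.6% after 1 h, 58.7 and 57.6% at 2 h, 33.8 and 32.8% after 4 h, 15.8 and 17.2% at 8 h and 9.10 and 9.30% after 12 h. It kept the largest labelled share of the 10 at 12 h. Its labelled level fell with a half-life of 2.62 h (2.32 to 3.01 h), faster than the median (slope difference −0.14 ± 0.01, edgeR adjusted p = 3.40e-11). Against its own total, which fell as well during the chase, the half-life was 3.58 h (3.20 to 4.06 h). The median of all genes on that scale was 3.79 h, and the YTHDF2 slope did not differ detectably from the median slope (difference −2.171e-04 log2 units per h, edgeR adjusted p = 0.984). YTHDC1, the nuclear reader tied to splicing and export, was labelled at 76.1 and 79.3% at 0 h, 35.9 and 39.8% after 4 h and 3.32 and 3.84% after 12 h. Its half-life was 3.08 h (2.60 to 3.77 h) and its slope differed from the median by −0.12 ± 0.02 (edgeR adjusted p = 1.27e-05).

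**Figure D2:**
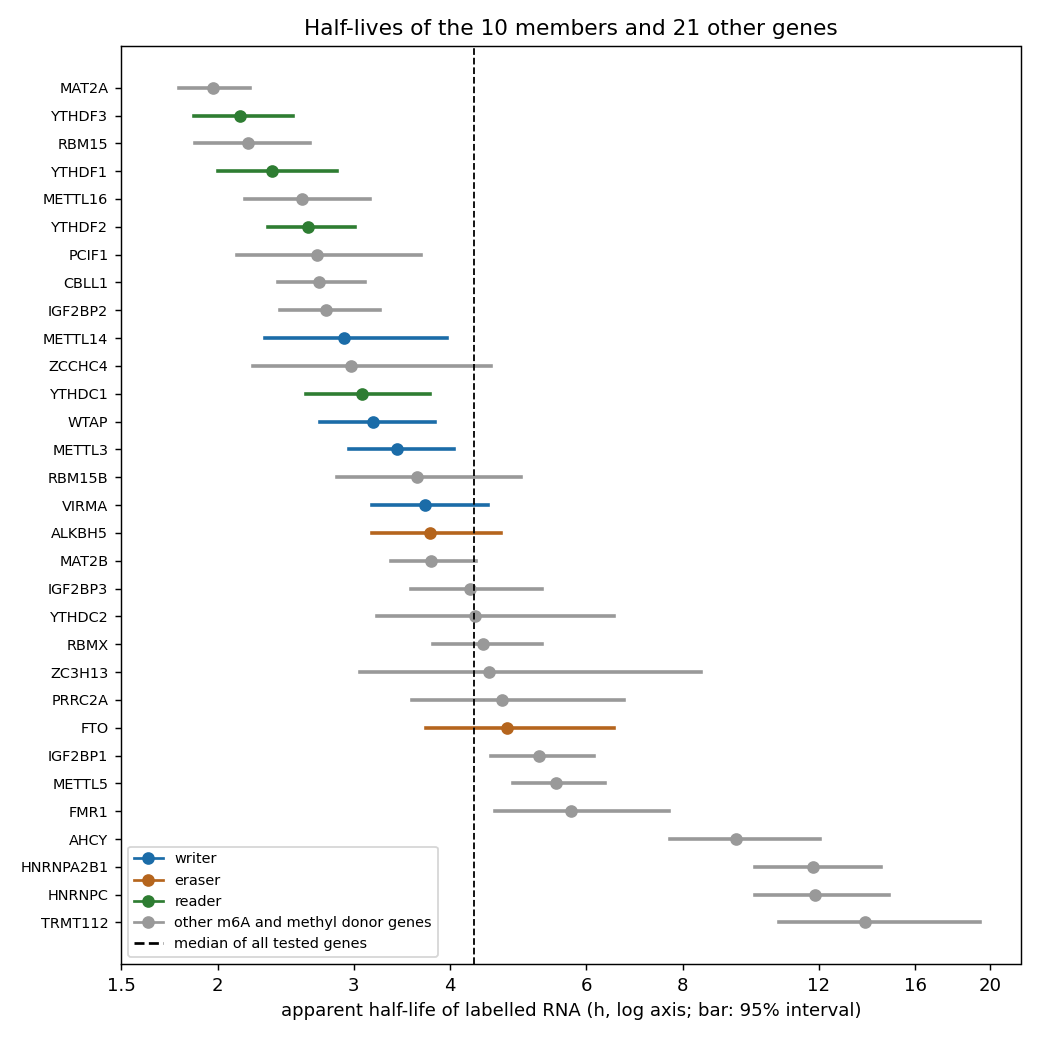
Apparent half-lives (h, log axis) with 95% intervals for the 10 genes, coloured by role, and for 21 further genes of the m6A and methyl donor pathways in grey. The dashed line is the median of all tested genes, 4.30 h, and the intervals of YTHDF3 (2.14 h), YTHDF1 (2.35 h) and YTHDF2 (2.62 h) end well to its left.

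With the library as offset, the half-lives ran from shortest to longest YTHDF3, YTHDF1, YTHDF2, METTL14, YTHDC1, WTAP, METTL3, VIRMA, ALKBH5 and FTO. Each gene's interval overlapped that of its neighbours in this order. Of the 45 pairs of members, 13 had intervals that do not overlap, and each of the 13 had YTHDF3, YTHDF1 or YTHDF2 on its shorter side. YTHDF3 was separated from YTHDC1, WTAP, METTL3, VIRMA, ALKBH5 and FTO, YTHDF1 from METTL3, VIRMA, ALKBH5 and FTO, and YTHDF2 from VIRMA, ALKBH5 and FTO. The replicate series gave 2.04 and 2.23 h for YTHDF3 and 4.55 and 4.93 h for FTO, a spread smaller than the distance between these genes. METTL3 had the widest spread between the replicate series, 3.76 and 3.12 h. The place of YTHDF2 depended on the offset. Against its own total its 3.58 h was longer than the values of METTL14 (2.62 h), YTHDC1 and VIRMA (both 2.89 h), METTL3 (2.97 h) and WTAP (3.38 h), and shorter only than those of ALKBH5 (3.90 h) and FTO (3.96 h). On that scale its interval lay above that of METTL14 (2.32 to 3.02 h), while YTHDF3 (2.27 h) and YTHDF1 (2.38 h) kept the shortest values.

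A single rate did not describe every member. The quadratic term of time was negative, so that loss sped up during the chase, and passed edgeR's quasi-likelihood test for 5 of the 10, against 33.3% of all 9652 genes. A positive term was called for 0 of the 10, with 0.539% among all genes. The 5 were ALKBH5 (edgeR adjusted p = 1.20e-04), WTAP (8.04e-04), METTL14 (0.00117), YTHDC1 (0.00175) and FTO (0.00588). Fitted over 0 to 4 h and over 2 to 12 h, the half-life of FTO was 10.8 and 3.77 h, that of ALKBH5 6.66 and 3.11 h, and that of METTL14 5.21 and 2.28 h. The early FTO interval had a lower bound of 4.93 h and no usable upper bound. For YTHDF3 the windows gave 2.36 and 1.86 h, and for YTHDF2 2.83 and 2.33 h. The median of all genes was 6.26 h over 0 to 4 h and 3.75 h over 2 to 12 h, so that a longer early half-life was general. With 2 to 12 h alone, none of these 5 passed (edgeR adjusted p of 0.116 to 0.637), against a background of 3.97% with a negative term. YTHDF2 passed there with a positive term (0.0155 log2 units per h squared, edgeR adjusted p = 0.00169), against 0.53% of genes. Over 0 to 4 h alone its term was negative and passed too, as given in the closing section. The share of all genes called for curvature over 0 to 4 h is not given. Over all times but without replicate 1 of 12 h, YTHDF1 passed as well, with a negative term (−0.0179).

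Total RNA was compared next, in 4 contrasts that share libraries, by edgeR's quasi-likelihood test over 16255 genes with 1 spread for all 7 groups. In bulk RNA, fewer cells and less RNA per cell cannot be told apart. Scaling to the spike-in in place of the human libraries moved the median log2 fold change of all genes by 0.50 at 0 h against no 4sU, by 0.094 at 4 h against 0 h, by 0.36 at 12 h against 0 h and by 0.86 at 12 h against no 4sU. The changes below are therefore relative to the library, and signs that turn on the spike-in scale are named with them. The library without 4sU is a single one, and its spread was taken to be that of the other groups.

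**Figure D3:**
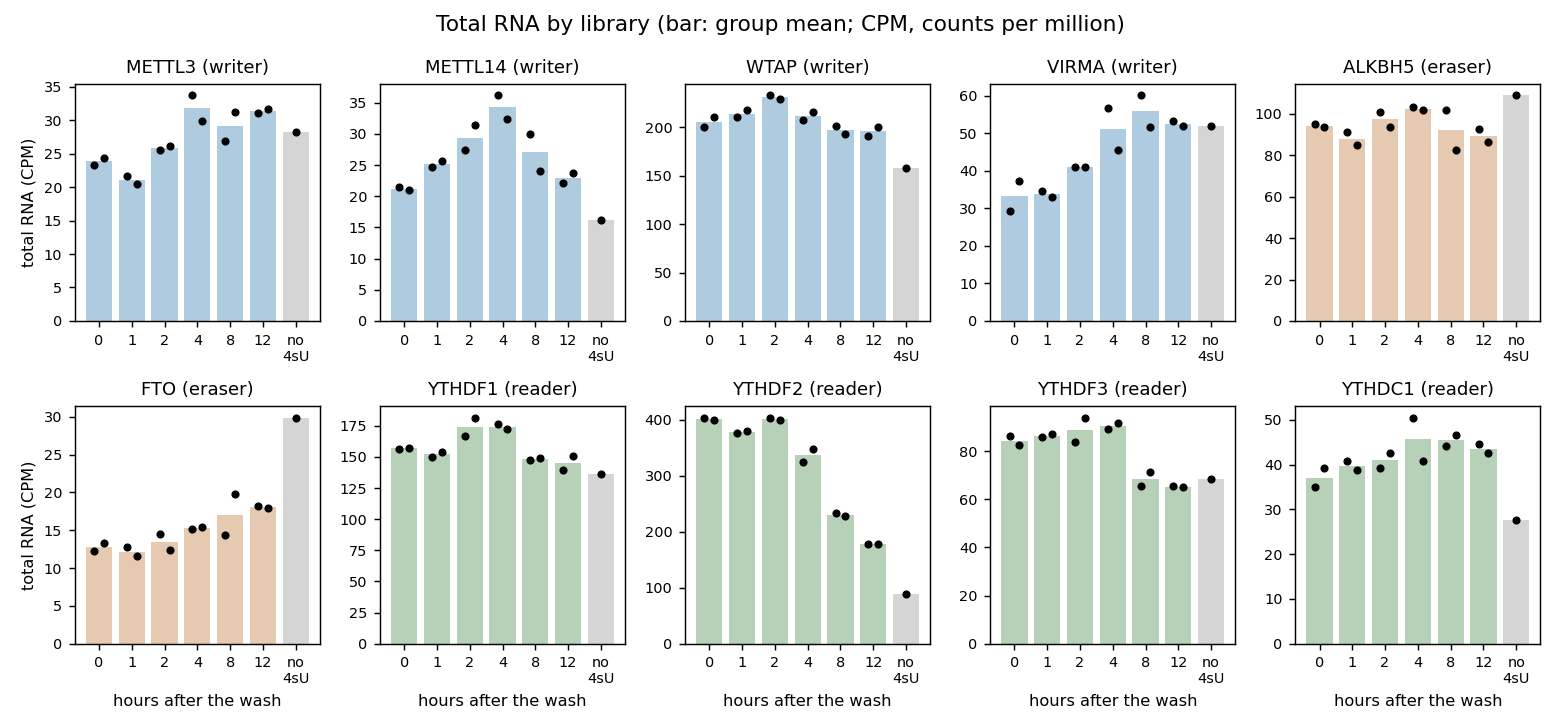
Total RNA of the 10 genes (CPM, linear axis from 0) in each library as points, with bars at the group means, for 0 to 12 h after the wash and, in grey, without 4sU. YTHDF2 stands at 403 and 400.1 CPM at 0 h and 88.3 CPM without 4sU, while FTO stands at 12.3 and 13.3 CPM at 0 h and 29.9 CPM without 4sU.

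After 12 h in 4sU, 4 of the 10 were higher and 4 lower at 0 h than without 4sU, where the background was 32.9% of genes higher and 32.4% lower. YTHDF2 had the largest difference. It stood at 403 and 400.1 CPM at 0 h, 376 and 379.6 CPM at 1 h, 404 and 399 CPM at 2 h, 325 and 348 CPM at 4 h, 233 and 228 CPM at 8 h and 178 and 179 CPM at 12 h, against 88.3 CPM without 4sU. All 12 chase libraries lay above the library without 4sU, and the libraries of 4, 8 and 12 h lay under those of 0 h. The log2 fold change was 2.11 ± 0.09 at 0 h against no 4sU (SE, edgeR adjusted p = 1.12e-16) and 0.84 ± 0.08 at 12 h against no 4sU (4.58e-09). It was −0.31 ± 0.06 at 4 h against 0 h (4.42e-04), which no longer passed on the spike-in scale (adjusted p = 0.0920). It was −1.27 ± 0.06 at 12 h against 0 h (edgeR adjusted p = 1.45e-14). On the spike-in scale the 4 changes of YTHDF2 were 2.61, 1.70, −0.21 and −0.90, in the order given here. Relative to the median of all genes on that scale they were 2.07, 0.76, −0.32 and −1.26. Subtracting the median takes the scaling out again, so these last values are no check of it.

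FTO had the opposite course. It stood at 12.3 and 13.3 CPM at 0 h, 12.8 and 11.6 CPM at 1 h, 14.5 and 12.3 CPM at 2 h, 15.2 and 15.4 CPM at 4 h, 14.3 and 19.8 CPM at 8 h and 18.2 and 17.9 CPM at 12 h, against 29.9 CPM without 4sU. Every chase library lay under the library without 4sU, and those of 4, 8 and 12 h lay above those of 0 h. FTO was lower at 0 h than without 4sU by a log2 fold change of −1.30 ± 0.17 (edgeR adjusted p = 3.04e-07), and at 12 h by −0.90 ± 0.16 (4.69e-05). That value at 12 h was −0.04 and did not pass on the spike-in scale (adjusted p = 0.882). On the spike-in scale FTO was higher at 12 h than at 0 h by 0.76 (edgeR adjusted p = 2.30e-04). The median of all genes on that scale was itself 0.36. On the library scale FTO was higher at 12 h against 0 h by 0.40 ± 0.16 (edgeR adjusted p = 0.0334). This call was lost without any 1 of the 4 libraries of 12 and 0 h (adjusted p of 0.0816 to 0.136), with RLE size factors (0.0549), with DESeq2 (0.134) and when spike-in side was a factor (0.265).

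ALKBH5 stood at 94.99 and 93.4 CPM at 0 h, 103 and 102 CPM at 4 h and 92.7 and 86.1 CPM at 12 h, against 109 CPM without 4sU. It was lower than without 4sU at 0 h (log2 fold change −0.29 ± 0.10, edgeR adjusted p = 0.0181) and at 12 h (−0.46 ± 0.10, 5.59e-04). On the spike-in scale both signs turned, to 0.21 at 0 h, which did not pass, and to 0.40 at 12 h, which passed as higher. The call at 0 h was lost without replicate 2 of 0 h (adjusted p = 0.0911) and when spike-in side was a factor (0.0783). Within the chase ALKBH5 did not pass in either contrast (edgeR adjusted p = 0.607 at 4 h and 0.104 at 12 h against 0 h). With RLE size factors it passed as lower at 12 h than at 0 h (log2 fold change −0.21, edgeR adjusted p = 0.0409). On the spike-in scale the sign of that change turned to 0.19 (edgeR adjusted p = 0.138).

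Of the writers, VIRMA stood at 29.4 and 37.2 CPM at 0 h, 34.8 and 33.1 CPM at 1 h, 41.1 and 40.97 CPM at 2 h, 56.7 and 45.6 CPM at 4 h, 60.2 and 51.6 CPM at 8 h and 53.3 and 51.9 CPM at 12 h, against 51.99 CPM without 4sU. The libraries of 4, 8 and 12 h lay above those of 0 h without overlap. VIRMA was lower at 0 h than without 4sU (log2 fold change −0.72 ± 0.13, edgeR adjusted p = 3.08e-05), and not called on the spike-in scale (−0.22, adjusted p = 0.227). It was higher at 4 h than at 0 h (0.58 ± 0.11, edgeR adjusted p = 3.19e-04) and at 12 h than at 0 h (0.57 ± 0.11, 1.21e-04). At 12 h it did not differ detectably from the library without 4sU (−0.15 ± 0.13, edgeR adjusted p = 0.321). On the spike-in scale that sign turned, and VIRMA passed as higher (0.71).

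METTL3 stood at 23.3 and 24.3 CPM at 0 h, 33.8 and 29.9 CPM at 4 h and 31.02 and 31.6 CPM at 12 h, against 28.3 CPM without 4sU. On the spike-in scale METTL3 was higher at 4 h than at 0 h by 0.46 (edgeR adjusted p = 0.0169). At 12 h it was higher than at 0 h by 0.66 there (edgeR adjusted p = 1.37e-04). The medians of all genes on that scale were themselves 0.10 and 0.36. On the library scale METTL3 was higher at 4 h than at 0 h (log2 fold change 0.37 ± 0.11, edgeR adjusted p = 0.0161). It was also higher at 12 h than at 0 h (0.30 ± 0.11, 0.0290). It was lower at 0 h than without 4sU (−0.32 ± 0.13, edgeR adjusted p = 0.0375), with the sign turned to 0.18 on the spike-in scale. None of these 3 calls held in every fit with a library left out, and DESeq2 called none of them (adjusted p of 0.0718, 0.138 and 0.103). At 4 h against 0 h the call was lost without replicate 1 of 4 h or either replicate of 0 h (edgeR adjusted p of 0.0703 to 0.148). At 12 h against 0 h it was lost with RLE size factors (0.0554) and without any 1 of the 4 libraries of 12 and 0 h (0.0767 to 0.0968), and at 0 h against no 4sU without either replicate of 0 h (0.0878 and 0.0896).

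METTL14 peaked in the middle of the chase, at 21.5 and 20.99 CPM at 0 h, 24.7 and 25.6 CPM at 1 h, 27.5 and 31.4 CPM at 2 h, 36.3 and 32.5 CPM at 4 h, 30.04 and 24.02 CPM at 8 h and 22.2 and 23.8 CPM at 12 h, against 16.1 CPM without 4sU. The libraries of 4 h lay above all others, and those of 12 h above those of 0 h by little. METTL14 was higher at 4 h than at 0 h (log2 fold change 0.64 ± 0.12, edgeR adjusted p = 1.83e-04), and not detectably different at 12 h against 0 h (0.02 ± 0.12, adjusted p = 0.910, with the sign turned to −0.02 with DESeq2's size factors). It did not pass at 0 h against no 4sU (0.32 ± 0.15, edgeR adjusted p = 0.0643) or at 12 h against no 4sU (0.34 ± 0.15, 0.0557), though the second passed when spike-in side was a factor (0.0425) and without any 1 of the 4 libraries of 4 and 8 h (0.0341 to 0.0468). On the spike-in scale METTL14 passed as higher in all 3, by a log2 fold change of 0.38 at 12 h against 0 h (edgeR adjusted p = 0.0336), 0.82 at 0 h against no 4sU (1.92e-04) and 1.21 at 12 h against no 4sU (1.36e-07). WTAP stood at 200.4 and 210.4 CPM at 0 h and 191 and 201 CPM at 12 h, against 158 CPM without 4sU, so that the libraries of 12 and 0 h overlapped. It was higher at 0 h than without 4sU (0.31 ± 0.08, edgeR adjusted p = 0.00148). At 12 h against 0 h WTAP was lower by a log2 fold change of −0.16 ± 0.06 (edgeR adjusted p = 0.0349), a call that was lost without any 1 of the 4 libraries (adjusted p of 0.0630 to 0.189) and when spike-in side was a factor (0.148), and whose sign turned to 0.20 on the spike-in scale.

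Of the other readers, YTHDF3 stood at 86.1 and 82.4 CPM at 0 h, 89.4 and 91.5 CPM at 4 h, 65.4 and 71.1 CPM at 8 h and 65.4 and 65.1 CPM at 12 h, against 68.5 CPM without 4sU. The libraries of 8 and 12 h lay under all earlier ones. YTHDF3 was lower at 12 h than at 0 h (log2 fold change −0.47 ± 0.08, edgeR adjusted p = 2.30e-05, and −0.10 with adjusted p = 0.489 on the spike-in scale). Its difference of 0.23 ± 0.10 at 0 h against no 4sU (edgeR adjusted p = 0.0426) was lost with DESeq2 (0.0727), with the side as a factor (0.141), and without replicate 1 of 0 h (0.204) or any 1 of the 4 libraries of 1 and 12 h (0.0510 to 0.0534). At 12 h against no 4sU it was lower by −0.24 ± 0.10 (edgeR adjusted p = 0.0386). This call was lost without either replicate of 12 h (log2 fold changes of −0.25 and −0.23). On the spike-in scale the sign turned, and YTHDF3 passed as higher (0.62).

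YTHDF1 stood at 157 and 157 CPM at 0 h, 176 and 172 CPM at 4 h and 139.7 and 151 CPM at 12 h, against 136 CPM without 4sU. It was lower at 12 h than at 0 h (log2 fold change −0.21 ± 0.07, edgeR adjusted p = 0.0115), a call lost without replicate 1 of 12 h (0.131) or replicate 1 of 0 h (0.0689) and with the side as a factor (0.282), and whose sign turned to 0.16 on the spike-in scale. YTHDC1 stood at 34.9 and 39.2 CPM at 0 h, 50.5 and 40.9 CPM at 4 h and 44.5 and 42.7 CPM at 12 h, against 27.5 CPM without 4sU. All its chase libraries lay above the library without 4sU. YTHDC1 was higher at 12 h than without 4sU (0.49 ± 0.13, edgeR adjusted p = 0.00223). At 0 h against no 4sU it was higher by 0.35 ± 0.13 (edgeR adjusted p = 0.0214), a call lost without replicate 2 of 0 h (0.0985) and, at a log2 fold change of 0.04, when spike-in side was a factor (0.877). It did not pass at 4 h against 0 h (0.26 ± 0.11, edgeR adjusted p = 0.0681) or at 12 h against 0 h (0.14 ± 0.11, 0.265), but passed as higher in both when spike-in side was a factor (0.40 and 0.45, adjusted p of 0.00664 and 0.0247). On the spike-in scale it passed at 12 h against 0 h as well (0.50, edgeR adjusted p = 0.00145). At 4 h against 0 h it also passed without replicate 2 of 4 h (0.00881).

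**Figure D4:**
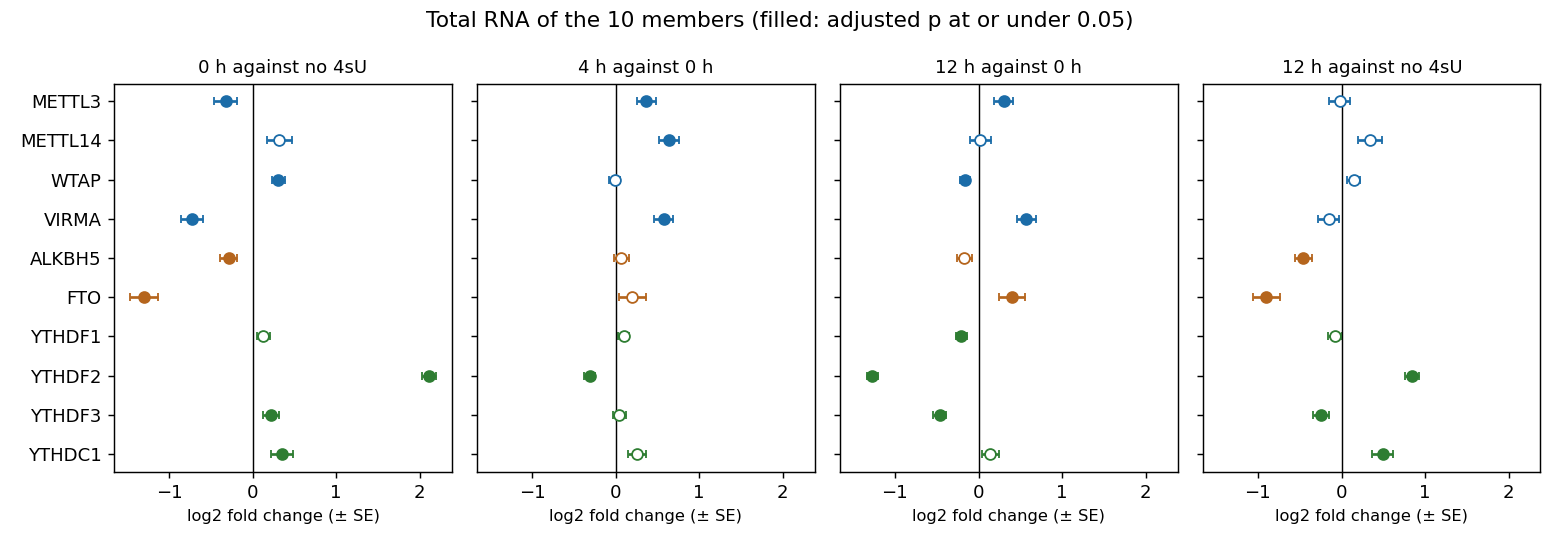
Log2 fold changes of total RNA with standard errors for the 10 genes in the 4 contrasts, blue for writers, brown for erasers and green for readers, with filled points where the edgeR adjusted p was at or under 0.05. YTHDF2 is farthest to the right at 0 h against no 4sU (2.11) and farthest to the left at 12 h against 0 h (−1.27), and the signs of METTL3 and ALKBH5 in the leftmost panel turn on the spike-in scale.

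At 4 h against 0 h, 3 of the 10 were higher and 1 lower (background 18.0 and 13.5%). At 12 h against 0 h, 3 were higher and 4 lower (28.9 and 27.3%), and at 12 h against no 4sU, 2 were higher and 3 lower (27.5 and 23.5%). The members' median log2 fold changes were 0.18, 0.15, −0.07 and −0.05 at 0 h against no 4sU, 4 h against 0 h, 12 h against 0 h and 12 h against no 4sU. Over all genes the medians were 0.04, 0.01, −0.00233 and 0.08 in the same contrasts.

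Splitting each total into labelled and unlabelled counts showed how the totals were made up. Unlabelled counts also hold labelled molecules whose reads showed no conversion. Unlabelled YTHDF2 stood at 95.9 and 95.2 CPM at 0 h, 215 and 234 CPM at 4 h and 161 and 162 CPM at 12 h, against 88.3 CPM without 4sU, so it was highest in the middle of the chase and in all of these libraries above the library without 4sU. Unlabelled METTL14 stood at 6.36 and 6.44 CPM at 0 h, 13.7 and 15.5 CPM at 2 h, 25.3 and 24.5 CPM at 4 h and 21.8 and 23.01 CPM at 12 h, against 16.1 CPM without 4sU. For FTO unlabelled counts were still 16.9 and 16.8 CPM at 12 h, under the 29.9 CPM without 4sU.

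**Figure D5:**
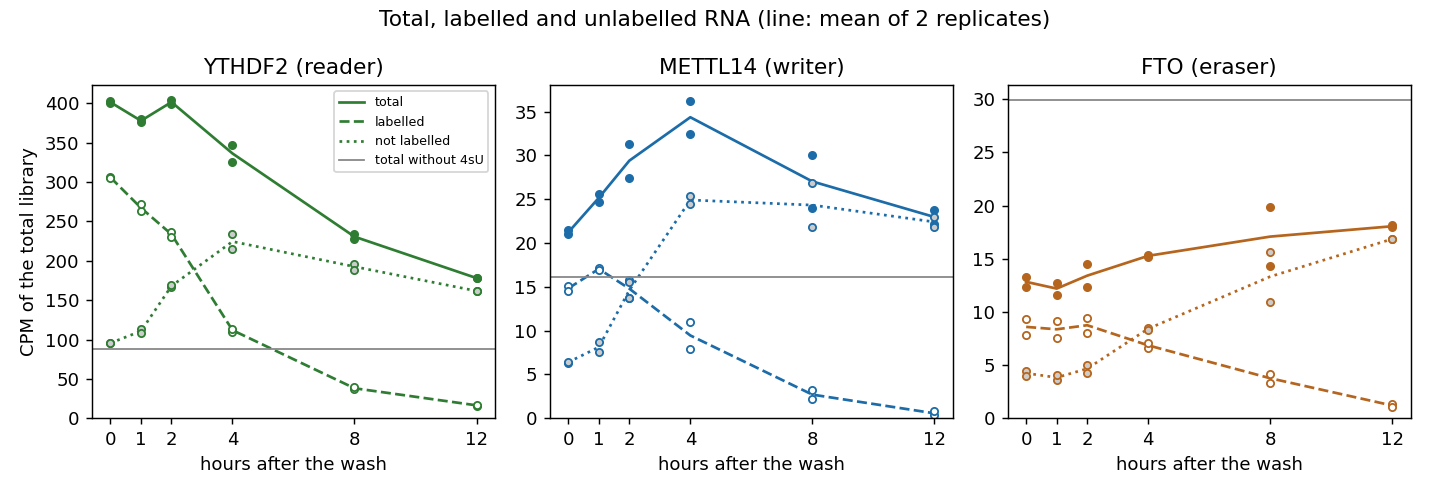
Total (solid line, filled points), labelled (dashed line, white points) and unlabelled (dotted line, grey points) RNA of YTHDF2, METTL14 and FTO (CPM of the total library, linear axes from 0) against hours after the wash, with a grey line at the total without 4sU. Unlabelled METTL14 reaches 25.3 and 24.5 CPM at 4 h, above the grey line at 16.1 CPM, while FTO stays under its line at 29.9 CPM.

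The transcripts of the 10 genes were described by features read from GENCODE 29, which the choice of genes did not use. Their median length was 3272.5 nt, against 3090.5 nt over 8394 tested coding genes, and their median 3′ untranslated region was 918 nt, against 1089 nt. The motif GGACT, the core of the m6A consensus, occurred at a median of 0.935 per kb in the members, against 0.917 per kb. Within the set FTO had the longest 3′ untranslated region, 10026 nt, and METTL3 the shortest, 120 nt. METTL14 held 19 ATTTA pentamers there, the letters of AU-rich decay elements, FTO held 10 and YTHDF2 held 0, while the medians were 1.5 in the members and 2 over all tested coding genes. The last 200 nt were 32.25% T at the median in the members and 32% over all.

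Total RNA of single genes followed the members closely over the 12 chase libraries, which share a time course. By Pearson's r of log2(CPM + 1) among 6077 genes of at least 20 CPM, the nearest to YTHDF2 were GNG5 and SRSF2 (both 0.994), to YTHDF3 TMEM170A (0.984) and RPS6KB1 (0.976), and to VIRMA FOXK2 (0.983) and MED10 (0.979). The nearest to METTL14 were RBM27 (0.945) and NCOA1 (0.944), to METTL3 OXSM (0.941) and KIAA2013 (0.939), and to WTAP ZNF121 (0.930) and ZFX (0.910). For FTO they were SYS1 (0.939) and MESD (0.934), for YTHDF1 CREB3L2 (0.941) and IST1 (0.933), and for YTHDC1 DNAJC21 (0.933) and TSTD2 (0.895). ALKBH5 had the weakest neighbours, CHAF1B (0.833) and SLC15A4 (0.802). These are descriptions of a shared course, with no test.

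Beyond the 10, 21 further genes of the m6A and methyl donor pathways were all tested. Of the 21, 9 lost labelled RNA faster than the median gene, 7 slower and 5 did not pass, where the background was 36.0% of genes faster and 36.3% slower. Their median half-life was 4.31 h. Of the 4 further subunits of the writer complex (RBM15, RBM15B, ZC3H13 and CBLL1) 3 were faster and 0 slower, and of the 9 other readers 1 was faster and 4 slower. The shortest half-lives were those of MAT2A, which makes the methyl donor S-adenosylmethionine, at 1.97 h (1.78 to 2.20 h), of RBM15, an adapter of the writer complex, at 2.19 h (1.87 to 2.63 h), and of METTL16 at 2.57 h (2.169 to 3.15 h). METTL16 is the methyltransferase that modifies MAT2A mRNA. The longest were those of the splicing regulators HNRNPA2B1 (11.8 h, 9.93 to 14.5 h) and HNRNPC (11.9 h, 9.93 to 14.8 h) and of TRMT112, a partner of METTL5 (13.8 h, 10.7 to 19.4 h). The order at the long end changed with the gene's own total as offset, where AHCY, the hydrolase that clears S-adenosylhomocysteine, stood at 33.6 h, HNRNPC at 27.3 h, HNRNPA2B1 at 26.1 h and TRMT112 at 11.4 h. The upper bounds of AHCY, HNRNPC and HNRNPA2B1 lay beyond the 48 h up to which values are read. At the short end that offset gave 1.67 h for MAT2A, 2.05 h for RBM15, 2.30 h for RBM15B and 2.56 h for METTL16. AHCY and RBM15B are named here because of these values.

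MAT2A stood at 203 and 209 CPM at 0 h, 208 and 212 CPM at 1 h, 233 and 242 CPM at 2 h, 276 and 292 CPM at 4 h, 359.8 and 364 CPM at 8 h and 413 and 407 CPM at 12 h, against 231 CPM without 4sU. Both libraries of each later time lay above both of 0 h from 2 h on. MAT2A was higher at 12 h than at 0 h (log2 fold change 0.90, edgeR adjusted p = 5.39e-12) and at 12 h than without 4sU (0.66, 7.83e-08). At 0 h it was called lower than without 4sU, by a log2 fold change of −0.24. METTL16 stood at 72.2 and 81.3 CPM at 0 h, 89.9 and 105 CPM at 4 h and 60.05 and 62.3 CPM at 12 h, against 24.96 CPM without 4sU. It was higher at 4 h than at 0 h (log2 fold change 0.29, edgeR adjusted p = 0.0139) and lower at 12 h than at 0 h (−0.42, 3.66e-04). Against no 4sU it was higher at 0 h (1.54, edgeR adjusted p = 3.70e-11) and at 12 h (1.12, 2.21e-08). The changes of MAT2A and METTL16 are given on the library scale only. The spike-in scale moved the median of all genes by 0.36 at 12 h against 0 h and by 0.86 at 12 h against no 4sU. At 0 h against no 4sU it moved that median by 0.50, which is more than the MAT2A change of −0.24 in size. The sign of that MAT2A change therefore holds for the library scale only. In total RNA the 21 genes had 7 higher and 7 lower calls at 0 h against no 4sU (background 32.9 and 32.4%) and 7 and 7 at 4 h against 0 h (18.0 and 13.5%). They had 10 and 9 at 12 h against 0 h (28.9 and 27.3%), and 5 and 6 at 12 h against no 4sU (27.5 and 23.5%).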

How the data were processed

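The authors deposited 3 tables of raw counts from 13 K562 libraries: all reads per human gene, the nascent reads per human gene, and reads per Drosophila gene. Tools and builds named in the submitters' processing notes are bcl2fastq 2.17.1.14, Trim Galore 0.6.5, bedtools, hg38 and dm6. How reads were aligned and counted, whether strand was used, and how many conversions define a nascent read were not given in the sources used. Groups came from the labels, and column names gave the library of every column.

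Labelled counts were modelled as a slope on chase time (12 libraries, edgeR 4.0.16 under R 4.3.3). The test was the two-sided quasi-likelihood F-test against the median slope, adjusted by Benjamini-Hochberg over all tested genes at a false discovery rate of 0.05. The offset was the log TMM effective size of the total library. Tested genes had a mean of 5 CPM or more in total and at least 100 labelled counts. Curvature was tested with a quadratic term. Half-lives were fitted per gene by quasi-Poisson regression as an exponential plus the labelled share without 4sU, with 95% intervals from the scaled standard error, read up to 48 h (matplotlib 3.10.9, pandas 2.3.3, scipy 1.17.1 and numpy 2.4.6 under Python 3.11.15). Total counts were fitted as 7 groups with TMM and filterByExpr. The spike-in side is the sign of a library on the leading principal component, computed from spike-in genes averaging 200 counts or more.

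All 10 members are named. Of 21 other pathway genes, the 3 with the shortest and the 3 with the longest half-life are named with MAT2A and METTL16, and for each member the 2 genes of at least 20 CPM with the highest Pearson r. The members and lists were chosen with earlier results of these data known. Alternatives were DESeq2 1.42.0 and its size factors (RLE), spike-in totals, own totals, other filters and windows, a replicate block, the spike-in side and each library left out. Count tests were tested on simulated data. Promoters are RefSeq windows on GRCh38.p14, read for 8 of the 10 members; the others are not used here.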

Additional observations from a re-analysis of the deposited data

How the results depend on the processing

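Among the 10 genes, the count called faster than the median gene was 8 and fell to 3 with 0 to 4 h only, where fewer times were used. It was 6 to 9 under the other alternatives, and the count called slower was 0 in all of them. Without each library in turn the count called faster was 7 to 8. Where no share of all genes is given above for a setting, its count is not read as particular to the members. The count with a curved loss was 5 and became 1 with 2 to 12 h only, where fewer times were used; that 1 was YTHDF2, outside the 5.

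The spike-in totals as library sizes changed the counts of total RNA calls most. They gave 1 member lower at 0 h against no 4sU and 0 lower at 4 h against 0 h. They gave 5 higher and 1 lower at 12 h against 0 h, and 9 higher and 0 lower at 12 h against no 4sU. On that scale the median log2 fold change of all genes was itself 0.36 and 0.94 in these contrasts. The share of all genes called is not given for the settings of this paragraph, so its counts of members are not read as particular to them. With the side of the spike-in composition as a factor, 2 were higher at 0 h against no 4sU and 2 lower at 12 h against 0 h. RLE size factors and DESeq2 each gave 1 higher at 12 h against 0 h. Without each library in turn the counts were 2 to 4 lower at 0 h against no 4sU, the lowest without replicate 2 of 0 h, and 1 to 3 higher and 2 to 4 lower at 12 h against 0 h. For the lower calls the count of 2 came without replicate 1 of 12 h or replicate 1 of 0 h, and for the higher calls the count of 1 came without any 1 of the 4 libraries. The causes were not tested.

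Signs of the slope difference turned for VIRMA (0.0158, spike-in side), ALKBH5 (0.00907, 0 to 4 h) and FTO (−0.0113 with no filter, −0.00959 over 2 to 12 h, −0.0127 with the side). Signs of the quadratic term turned for METTL3 (−0.0502 over 0 to 4 h, −8.51e-04 with the side, and −0.00884 to 0.00489 without each library), VIRMA (0.00487, own total), YTHDF1 (0.0139) and YTHDF3 (0.00500) over 2 to 12 h, and YTHDF2 (−0.0841 over 0 to 4 h, edgeR adjusted p = 4.43e-05). On the spike-in scale log2 fold changes of total RNA turned at 0 h against no 4sU for METTL3 (0.18) and ALKBH5 (0.21), and at 4 h against 0 h for WTAP (0.0838). At 12 h against 0 h they turned for WTAP (0.20), ALKBH5 (0.19) and YTHDF1 (0.16), and at 12 h against no 4sU for METTL3 (0.84), VIRMA (0.71), ALKBH5 (0.40), YTHDF1 (0.79) and YTHDF3 (0.62). METTL14 at 12 h against 0 h was −0.0202 with RLE, −0.0228 with DESeq2 and −0.0275 to 0.0684 without each library. Without each library, WTAP at 4 h against 0 h ran over −0.0513 to 0.0147 and YTHDF3 over −0.0140 to 0.113. None of these was past the threshold in the fit reported above except METTL3 and ALKBH5 at 0 h against no 4sU, WTAP and YTHDF1 at 12 h against 0 h, ALKBH5 and YTHDF3 at 12 h against no 4sU, and the ALKBH5 slope.

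Replicate numbers did not pair the libraries: deviations of libraries with the same number correlated at −0.139 to 0.393. With the replicate block, 8 members were called faster and 5 curved, 3 were higher and 1 lower at 4 h against 0 h, and 3 higher and 5 lower at 12 h against 0 h, the added one being ALKBH5 (−0.17, edgeR adjusted p = 0.0466). The share of all genes called with the block is not given, so these counts are not read as particular to the members. Contrasts against the library without 4sU were not run with the block. A term for curvature was not run in DESeq2. Half-lives under spike-in totals were longer for all 10 members except METTL3 by more than the spread between the replicate series, up to 5.604 h for FTO. The median of all tested genes rose as well, from 4.30 to 5.01 h, so that longer values on this scale were general. In total RNA, depth limits FTO and METTL14 most, at 12.3 and 21.5 CPM in replicate 1 of 0 h. Labelled counts at 12 h were 4 and 10 for METTL14, 10 and 20 for YTHDF3 and 15 and 14 for FTO. The labelled shares of these genes at 12 h therefore rest on few reads.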
